A study of Homo sapiens with 6 samples.

Results

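The genes described are those for the proteins of the cytosolic ribosome in HCT116 cells, compared after 48 hours of irinotecan (CPT-11, 10 µM) and after DMSO. They were chosen by name: every protein-coding row called RPL or RPS followed by digits and an optional A, X or L suffix, with RPLP0, RPLP1, RPLP2 and RPSA added and RPS27L and the RPS6K kinases left out. This gave 79 of the 30560 genes in the table, 31 for the small 40S subunit and 48 for the large 60S subunit. All but RPL3L averaged at least 10 normalized counts and were tested, so 78 genes enter the comparison. RPL3L, the muscle copy of RPL3, had 25 reads in all controls together and 14 in all CPT-11 samples.

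HCT116 is an established line from a human colorectal carcinoma, labelled wild type here. Irinotecan is converted in cells to SN-38, a camptothecin that locks topoisomerase I onto cut DNA. There were 3 DMSO controls and 3 CPT-11 samples by the labels, although the series text speaks of duplicates, read by RNA sequencing, with between 15398464 and 18031195 reads on genes per library. Whether the replicates were grown as separate cultures is not in the labels, and the p-values therefore reflect no more than the variation among these libraries, part or all of which can be technical. Of the 9 colon epithelial markers with a row 7 averaged at least 10 normalized counts, of 4 leukocyte markers 0 did, and of 3 fibroblast and 4 endothelial markers 1 each did. The summed levels ran from 54639 to 62572 in controls and from 101770 to 112761 after CPT-11 for the epithelial list, and from 531 to 649 and from 928 to 1239 for the fibroblast list, and their part in the results was not tested.

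The ribosomal protein genes are among the most strongly transcribed genes of a dividing cell, and their products are made in near equal amounts, surplus protein being degraded. Most of their mRNAs begin with a C followed by a run of C and U bases, the terminal oligopyrimidine (TOP) motif, through which the kinase complex mTORC1 and the protein LARP1 control their translation and stability. When ribosome assembly is disturbed, RPL5 and RPL11, joined to the 5S ribosomal RNA, bind and inhibit the ubiquitin ligase MDM2.

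RefSeq start sites (GRCh38.p14) with a sequence were matched for 63 of the 78 tested genes. A C at the annotated start followed by C or T bases, at least 5 in all, was found in 42 of them (66.7%), and in 1104 of 27305 promoters of all genes (4.04%). At least 8 such bases were found in 38.1% and 1.43%. The windows printed here are those of genes the results turn on. With all 6 libraries some were lowered (RPSA, RPS14, RPS25, RPL31, RPS15) and others not called (RPLP0, RPLP1, RPS27, RPL39). Each gives 10 bases before the annotated start and 20 from it, on the gene's strand, with the run in capitals.
RPSA (chr3:39406710-39406739, plus strand): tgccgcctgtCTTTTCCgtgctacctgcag
RPS14 (chr5:150449720-150449749, minus strand): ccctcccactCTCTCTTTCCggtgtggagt
RPS25 (chr11:119018324-119018353, minus strand): gcagcgcttcCTTTTTgtccgacatcttga
RPL31 (chr2:101002279-101002308, plus strand): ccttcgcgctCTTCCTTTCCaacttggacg
RPS15 (chr19:1438386-1438415, plus strand): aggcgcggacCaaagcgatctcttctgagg
RPLP0 (chr12:120201092-120201121, minus strand): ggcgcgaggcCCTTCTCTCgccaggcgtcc
RPLP1 (chr15:69452808-69452837, plus strand): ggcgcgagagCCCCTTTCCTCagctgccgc
RPS27 (chr1:153990752-153990781, plus strand): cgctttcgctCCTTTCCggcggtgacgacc
RPL39 (chrX:119791611-119791640, minus strand): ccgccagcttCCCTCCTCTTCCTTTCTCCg
The run was 7 bases long in RPSA, 10 in RPS14, 6 in RPS25 and 10 in RPL31, all lowered. It was 9 in RPLP0, 11 in RPLP1, 7 in RPS27 and 19 in RPL39, none of them called with all 6 libraries. Without the libraries numbered 1, described below, RPS27 and RPL39 were called higher and RPL31 was not called. These windows were picked with the results known and do not compare run lengths between lowered and uncalled genes. RPS15, the member with the second lowest fold change, had the start C alone. A match in these windows is a description of the annotated start and not of the start used in these cells.

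The libraries numbered 1 stood apart in both groups for these genes, in opposite directions. RPS27, a 40S protein with a zinc finger, had normalized counts of 6430, 2536 and 2561 in the controls (numbers 1, 2 and 3 in that order, as in all values by sample here) and of 2051, 3043 and 3855 after CPT-11. RPL39, one of the smallest ribosomal proteins and part of the exit tunnel wall, had 4113, 2370 and 2592 in controls and 2247, 3423 and 3847 after CPT-11. In both genes control 1 was the highest of all 6 libraries and CPT-11 sample 1 the lowest. All 9 tested genes with a coding length under 300 nt were higher in control 1 than in the mean of the other controls, by a median log2 difference of 0.63 (range 0.45 to 1.33), and all 9 were lower in CPT-11 sample 1 than in its group's other samples, by a median log2 difference of -0.45 (range -0.74 to -0.12). Among the 69 longer genes the medians of these log2 differences were 0.07 and -0.04. Across the 78 genes, which share their libraries, the difference in control 1 went with coding length at r = -0.51 (rho = -0.41) and that in CPT-11 sample 1 at r = 0.50 (rho = 0.36), and both differences together at r = -0.81 (rho = -0.72), with opposite signs in 58 genes. The counts over the members and their lists, and the members where it matters, are therefore also given without both libraries numbered 1, a choice made after these values were seen. Each of these libraries was also left out alone among the alternatives. What sets them apart was not tested. The remaining libraries also differed with coding length. Control 2 minus control 3 went with it at r = 0.41, and CPT-11 sample 2 minus sample 3 at r = 0.39. These differences were smaller, with an SD over the genes of 0.09 and 0.117, beside 0.31 and 0.221 for the libraries numbered 1. Leaving out the libraries numbered 1 therefore does not remove every difference by length.

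**Figure D1:**
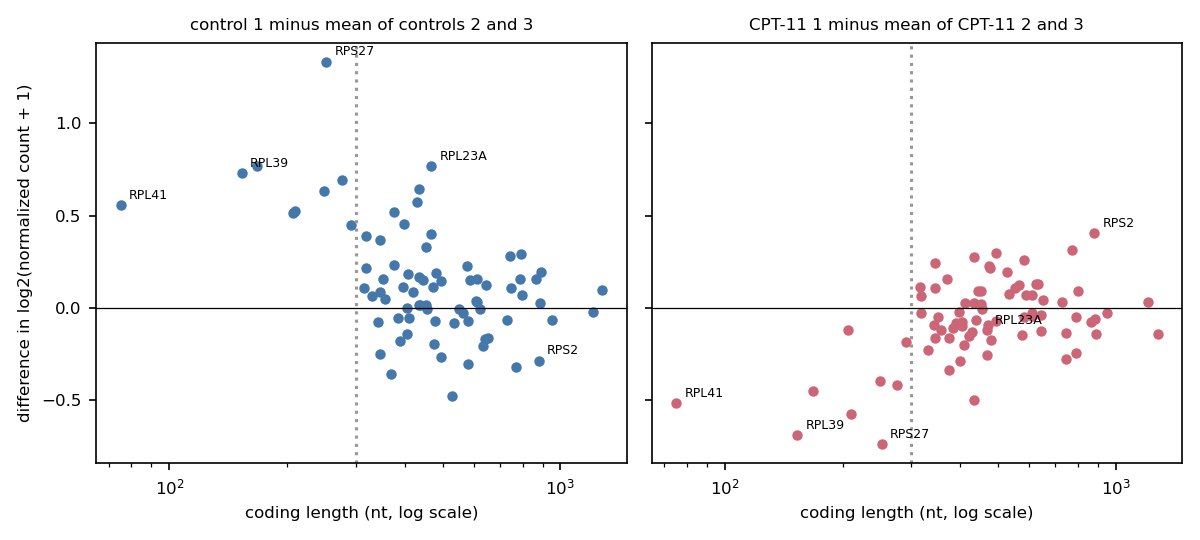
Each point is 1 of the 78 tested ribosomal protein genes. The x axis is the coding length in nucleotides on a log scale, with a dotted line at 300, and the y axis the difference in log2(normalized count + 1) between the library numbered 1 and the mean of the other libraries of its group (controls left, CPT-11 right). The 9 genes left of the line all lie above 0 in control 1 and below 0 in CPT-11 sample 1.

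After CPT-11 the ribosomal protein genes had small fold changes, more of them lower than higher. Of the 78 tested, 29 were lower and 1 was higher at a Benjamini-Hochberg adjusted p below 0.05 (limma, over all 16239 tested genes), and 48 were not called. That is 37.2% lower, beside 25.1% of all tested genes, and 1.28% higher, beside 24.3%, where 49.4% of all tested genes were called in either direction. Of the 78 log2 fold changes 67 were negative, with a median of -0.19, a median change of -12.5%, beside 0.01 over all tested genes. RPS2 had the lowest, -0.65, and the quartiles were -0.28 and -0.09, while the quartiles of all tested genes were -0.39 and 0.38. The count of 29 was 16 without CPT-11 sample 2 and 17 without CPT-11 sample 3, and it was 15, with 3 higher, when libraries were scaled by size without mitochondrial reads.

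The median gene stood at log2 differences from the control mean of 0.07, 0.01 and -0.08 in the controls, and of -0.22, -0.12 and -0.19 after CPT-11. Every CPT-11 sample was therefore below every control by this measure, with a distance from CPT-11 sample 2 to control 3 that was smaller than the spread among the controls. All 3 CPT-11 values were below all 3 control values in 36 genes (28.8% of all tested genes did this) and above them in 3 (27.8%).

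Without the libraries numbered 1, 33 genes were lower and 10 higher (limma, 2 samples against 2), beside 26.7% and 25.8% of all tested genes. The median log2 fold change was then -0.10. Of the lower genes 26 were lower in both fits, and RPL23A, RPL31 and RPL37 only with all 6 libraries, while 7, among them RPL8, RPL10, RPL10A, RPLP2, RPS9 and RPS15A, were lower only without the libraries numbered 1. Among the 10 higher ones were RPL39 (log2 fold change 0.55), RPS27 (0.43), RPL38 (0.26), RPL37A (0.21), RPS29 (0.20), RPS26 (0.18), RPS24 (0.18) and RPS20 (0.17), and 5 of the 10 had coding lengths under 300 nt. Of the 9 genes under 300 nt 6 had the other sign without these libraries, while RPL37, RPL39 and RPS28 kept theirs. Of the 69 longer genes 32 were lower and 5 higher without them.

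**Figure D2:**
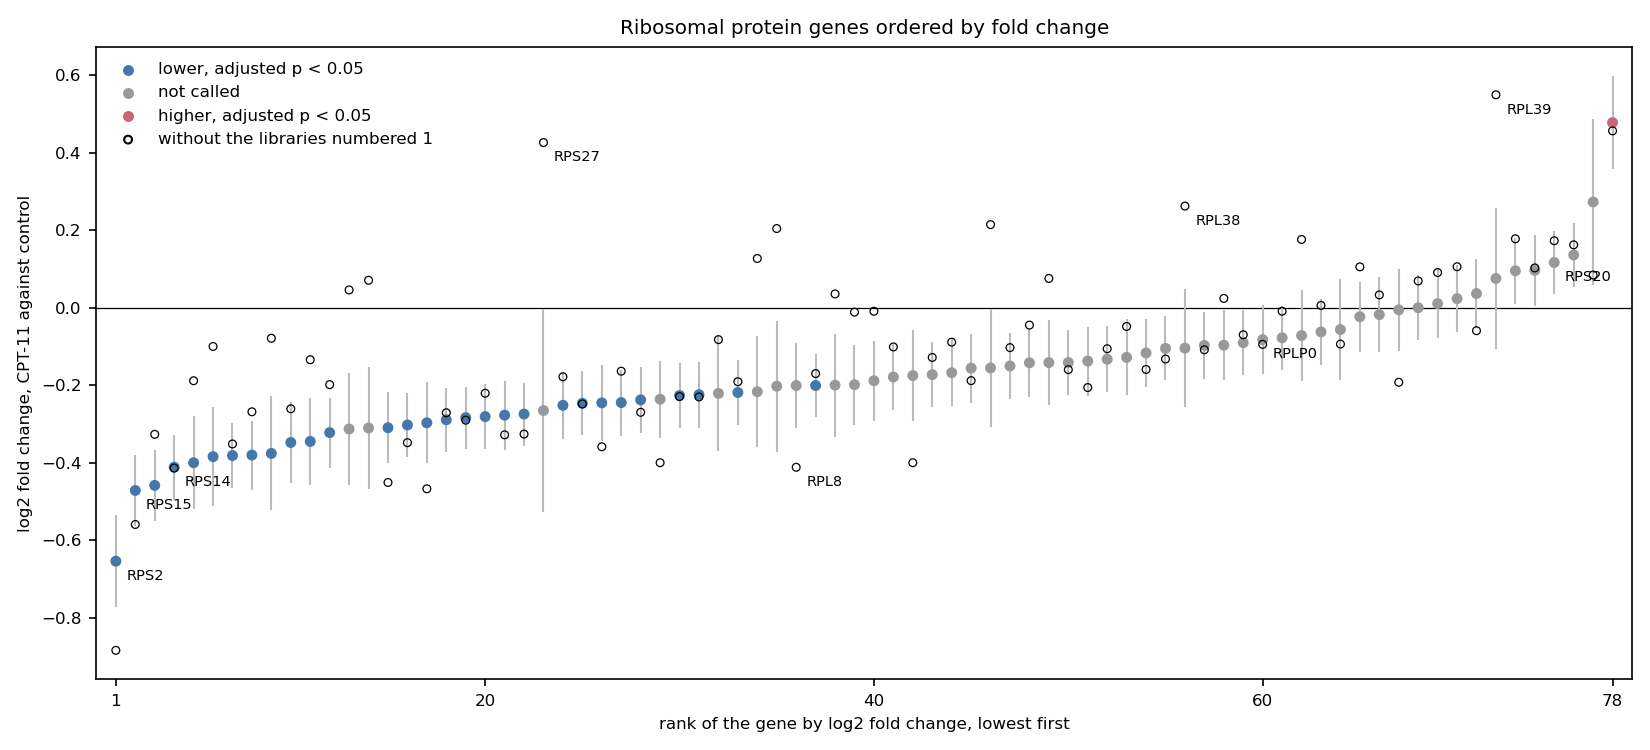
The 78 tested ribosomal protein genes are ordered along the x axis by log2 fold change (CPT-11 against control, y axis). Filled points are the limma estimates with bars of 1 SE, blue where lower and red where higher at an adjusted p below 0.05, and open circles are the estimates without the libraries numbered 1. The lowest filled point, RPS2, lies at -0.65, and the open circles of RPS27 and RPL39 lie at 0.43 and 0.55.

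Genes of both subunits were among those lowered. Of the 31 genes of the 40S subunit 13 were lower and 1 higher (median log2 fold change -0.20). Of the 47 tested genes of the 60S subunit 16 were lower and 0 higher (median -0.17). Beside these counts, 25.1% of all tested genes were lower and 24.3% higher. Without the libraries numbered 1 the 40S genes had 15 lower and 7 higher and the 60S genes 18 lower and 3 higher. The shares of all tested genes were then 26.7% and 25.8%. The lists of subunit parts described from here on were drawn up with earlier results of these data known, and their counts are descriptions.

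Of the 14 listed proteins of the 40S head, the lobe over the decoding centre, 6 were lower (RPS3, RPS15, RPS16, RPS18, RPS25 and RPS28) and 1 higher. Beside this, 37.2% of all members and 25.1% of all tested genes were lower. Without the libraries numbered 1 the head had 6 lower and 4 higher. RPS15, which is needed for export of small subunit precursors from the nucleus, had normalized counts of 8556, 8754 and 8209 in controls and 6971, 5836 and 5673 after CPT-11. All CPT-11 values were below all controls, and CPT-11 sample 1 lay nearest to them. The log2 fold change was -0.47 (SE 0.09, adjusted p = 0.000333, limma with Benjamini-Hochberg adjustment) and -0.56 without the libraries numbered 1. RPS25, needed for initiation at several viral internal entry sites, had 7638, 6425 and 6605 in controls and 4631, 5287 and 5105 after CPT-11, again with no overlap (log2 fold change -0.46, SE 0.09, limma adjusted p = 0.000427, and -0.33 without the libraries numbered 1). RPS28, a short protein near the mRNA exit, had 3088, 2171 and 2157 in controls and 1745, 1812 and 1990 after CPT-11. Control 1 was far above the other controls in RPS28, and its log2 fold change of -0.40 (SE 0.12, limma adjusted p = 0.00998) became -0.19 without the libraries numbered 1, still called (limma adjusted p = 0.0266).

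Head proteins also held genes at the other end of the order. RPS20 had 12637, 12501 and 11973 in controls and 12679, 13938 and 13653 after CPT-11. All CPT-11 values were above all controls, CPT-11 sample 1 only just, and the log2 fold change of 0.12 (SE 0.08) was not called with all 6 libraries (limma adjusted p = 0.252). RPS10 was the lowest gene in level, with 62, 80.2 and 69.8 in controls and 97.9, 98.3 and 64.2 after CPT-11, groups that overlapped. RPS19, the protein most often altered in Diamond-Blackfan anaemia, had a log2 fold change of -0.15 (limma adjusted p = 0.154). RPS27A, made as a fusion with ubiquitin that is cut off, had -0.14 (limma adjusted p = 0.30) and 0.08 without the libraries numbered 1.

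RPS10, RPL17 and RPL36A were among the 4 tested members averaging under 1000 normalized counts. Of their exonic bases 39.4%, 35.3% and 8.4%, in that order, also lie in exons of other genes. In 11 tested members 100% of the 31-base words of the coding sequence also stood in transcripts of other genes, not always the same gene for each word. Reads longer than a word can still tell genes apart. How many reads of these 11 members also fit other genes was not tested, and their levels are uncertain. The 11 members were RPL7, RPL17, RPL21, RPL36A, RPL39, RPL41, RPS3A, RPS10, RPS26, RPS27 and RPS28, among them 4 of the 9 genes under 300 nt.

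The 40S body and platform held the gene with the lowest fold change. RPS2, a protein near the mRNA entry channel with a role in decoding accuracy, had 36248, 44865 and 43535 in controls and 31702, 25868 and 22167 after CPT-11. All CPT-11 values were below all controls, with control 1 the lowest control and CPT-11 sample 1 the highest treated one. The log2 fold change was -0.65 (SE 0.12, limma adjusted p = 0.000189), and -0.88 without the libraries numbered 1. Of the exonic bases of RPS2 25.6% also lie in exons of another gene, and 88.7% of its coding words stand in transcripts of other genes, so part of its count is uncertain. RPS14, a platform protein whose loss of 1 copy marks a myelodysplastic syndrome, had 11456, 12123 and 10618 in controls and 8640, 8780 and 8264 after CPT-11. Its groups did not overlap and its libraries numbered 1 did not stand apart, with a log2 fold change of -0.41 (SE 0.08, limma adjusted p = 0.000537) with them and -0.41 without them. RPS14 shared no exonic bases with another gene and 32.1% of its coding words.

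RPSA, a 40S protein at the mRNA exit that is also known as the laminin receptor, had 33372, 33818 and 31705 in controls and 24582, 26496 and 24863 after CPT-11. No library stood apart within its groups, and the groups were far from each other (log2 fold change -0.38, SE 0.08, limma adjusted p = 0.00116, and -0.35 without the libraries numbered 1). RPS26, which also contacts mRNA near the exit, had a log2 fold change of 0.10 (limma adjusted p = 0.376). RPS4X, whose gene lies on the X chromosome and has a copy on the Y, had -0.06 (limma adjusted p = 0.57), with overlapping groups.

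**Figure D3:**
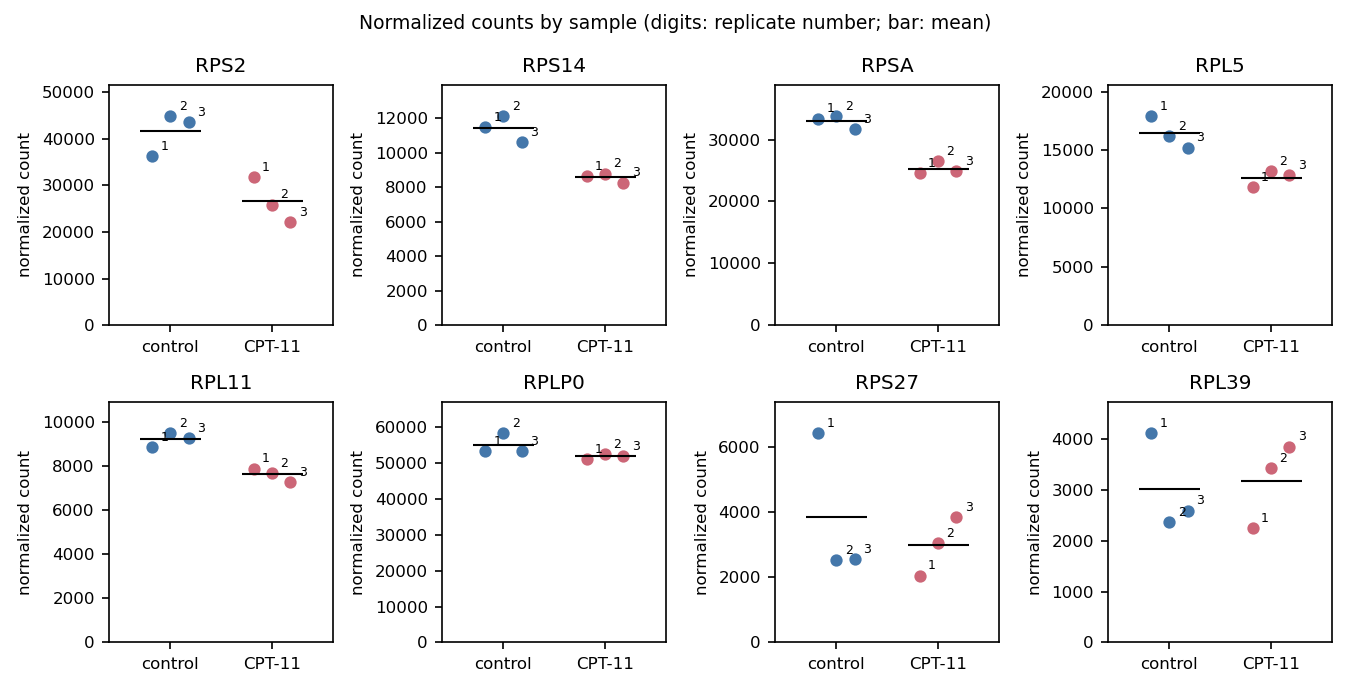
Normalized counts (y axis, from 0) of 8 ribosomal protein genes in each control (blue) and CPT-11 sample (red), with the replicate number beside each point and a bar at the mean. No red point reaches the blue ones in RPS2, RPS14, RPSA, RPL5, RPL11 and RPLP0, and in RPS27 and RPL39 control 1, at 6430 and 4113, stands apart from the other controls.

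In the 60S subunit, both proteins of the 5S ribonucleoprotein were lower. RPL5 had 17935, 16207 and 15213 normalized counts in controls and 11805, 13198 and 12879 after CPT-11. RPL11 had 8873, 9492 and 9265 in controls and 7882, 7690 and 7279 after CPT-11. In neither gene did the groups overlap. The log2 fold change was -0.38 for RPL5 (SE 0.09, limma adjusted p = 0.00176) and -0.27 for RPL11 (SE 0.08, limma adjusted p = 0.00937), and without the libraries numbered 1 it was -0.27 and -0.33. RPL11 was not called without CPT-11 sample 3 (limma adjusted p = 0.0587). Only 12.1% of the coding words of RPL11 stood in other genes' transcripts, the lowest share among the tested members. Of the 14 listed ribosomal proteins reported to bind MDM2, 8 were lower (RPL5, RPL11, RPL37, RPS3, RPS7, RPS14, RPS15 and RPS25) and 0 higher, with a median log2 fold change of -0.28, beside 37.2% lower over all members and 25.1% over all tested genes. Without the libraries numbered 1, 7 of the 14 were lower and 3 higher. MDM2 itself was higher, with means of 3006 ± 339 in controls and 6406 ± 452 after CPT-11 (SD, n = 3; log2 fold change 1.09), as was CDKN1A, a cell cycle inhibitor gene on the same list (2.79).

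At the rim of the peptide exit tunnel, 4 of 8 listed genes were lower (RPL22, RPL23A, RPL31 and RPL35). Beside this, 37.2% of all members and 25.1% of all tested genes were lower. Without the libraries numbered 1 the rim had 2 lower and 1 higher. RPL31 had 11376, 8093 and 7802 in controls and 5877, 7020 and 7833 after CPT-11, so that control 3 and CPT-11 sample 3 were nearly equal. Its log2 fold change of -0.38 (SE 0.13, limma adjusted p = 0.0189) became -0.10 without the libraries numbered 1, and was no longer called. RPL39 went from 0.08 (limma adjusted p = 0.754) to 0.55 without these libraries. Both genes had control 1 as the highest control and CPT-11 sample 1 as the lowest treated sample.

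None of the 3 proteins of the P stalk, which recruits the elongation factors, was called. RPLP0 had 53281, 58397 and 53275 in controls and 51191, 52619 and 51889 after CPT-11. All treated values were below all controls, with a log2 fold change of -0.08 (SE 0.09, limma adjusted p = 0.47). RPLP1 had 0.10 (limma adjusted p = 0.40), and RPLP2 -0.24 (limma adjusted p = 0.0584) and -0.40 without the libraries numbered 1, when it was called lower. RPL3, at the peptidyl transferase centre, had a log2 fold change of -0.14 (limma adjusted p = 0.179). Of the near-identical pair RPL36A and RPL36AL the first had a mean of 216 ± 35.9 in controls and 184 ± 8.65 after CPT-11, and the second 1491 ± 164 and 1468 ± 44.2 (SD, n = 3), and neither was called.

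Per kilobase of coding sequence, control levels ran from 143 normalized counts in RPS10 to 144389 in RPL41, the shortest coding sequence at 75 nt, with a median of 21180. The low level of RPS10 is uncertain. Of its exonic bases 39.4% also lie in exons of other genes, and 100% of its coding words stand in transcripts of other genes. The level per coding kilobase overstates very short genes, whose transcripts are mostly untranslated sequence. RPL41 itself had 13776, 9434 and 9277 in controls and 6744, 9676 and 9643 after CPT-11. Controls 2 and 3 were close to CPT-11 samples 2 and 3, and the log2 fold change of -0.31 was not called (limma adjusted p = 0.0825).

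Of 19 listed genes known to be mutated in Diamond-Blackfan anaemia, an inherited failure of red cell production, 8 were lower and 1 was higher. The lower ones were RPL5, RPL11, RPL15, RPL18, RPL31, RPL35, RPS7 and RPS28, with a median of -0.27 over the list. Over all members 37.2% were lower and over all tested genes 25.1%, and without the libraries numbered 1 the list had 8 lower and 5 higher.

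The members together took a smaller share of the reads after CPT-11. Their share was 5.96%, 5.92% and 5.76% in the controls and 5.33%, 5.37% and 5.19% after CPT-11. The highest treated share lay below the lowest control share, and the difference between the means was -0.582 percentage points, or -0.561 without the libraries numbered 1. The means were 5.88% ± 0.102 and 5.30% ± 0.0966 (SD, n = 3), and the 95% exact binomial interval of a single share, such as 5.95% to 5.97% in control 1, covers counting error only. The 60S share went from 3.70% to 3.41%, or to 0.922 of control, and the 40S share from 2.18% to 1.89%, or to 0.866. The mitochondrial chromosome moved with it in the other direction, from 7.24% ± 0.342 to 10.3% ± 0.623 (SD, n = 3). With mitochondrial reads left out of the total the member share was 6.34% ± 0.132 in controls and 5.91% ± 0.082 after CPT-11 (SD, n = 3). In bulk RNA, fewer cells of one kind and less RNA per cell cannot be told apart, and a share of reads does not give an amount per cell.

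**Figure D4:**
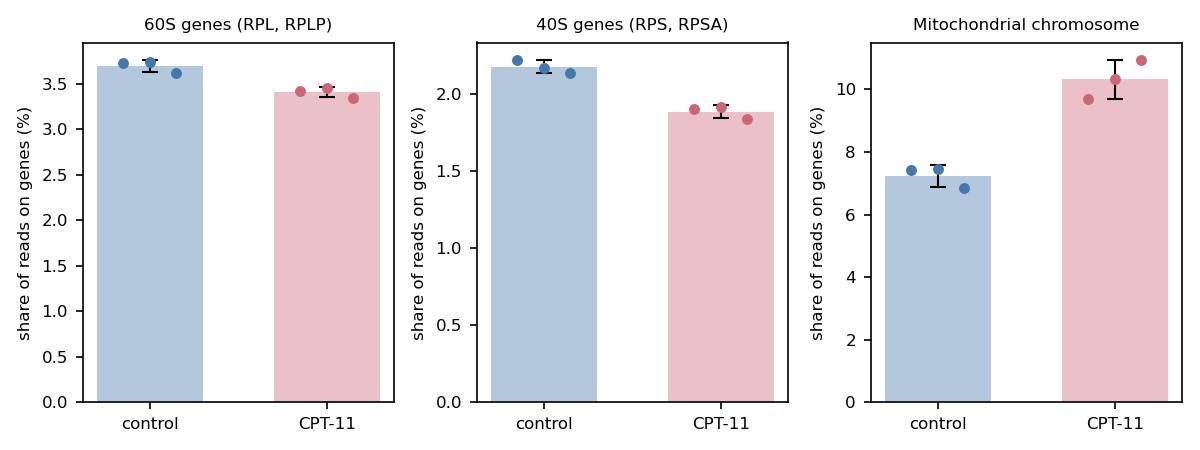
Share of all reads on genes (%, y axes from 0) taken by the 60S genes, the 40S genes and the mitochondrial chromosome. Points are the 6 libraries, bars the group means and error bars 1 SD over 3 samples; the ribosomal protein shares are lower after CPT-11 and the mitochondrial share higher, with no overlap between groups in any of the panels.

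Scaled to the members' own pool, so that each library had the same total on these genes, 9 members were higher and 6 lower. This asks which of them departed from the rest, and 35.9% of all tested genes were higher and 17.1% lower on that scale. The 6 lower were RPS2 (-0.47), RPS15 (-0.29), RPS25 (-0.27), RPS14 (-0.23), RPSA (-0.20) and RPL5 (-0.20). Among the 9 higher were RPS20 (0.30), RPLP1 (0.28), RPS26 (0.28), RPL29 (0.22), RPL14 (0.21), RPL4 (0.20) and RPL24 (0.18). The other 63 were not called against the pool. The 15 members called on this scale were 7 without CPT-11 sample 2, 9 without control 3 and 39 without the libraries numbered 1.

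Abundance, gene length and TOP runs were set beside the fold changes. Other protein-coding genes averaging at least 1000 normalized counts (3946 genes) had a median log2 fold change of -0.02, with 31.9% lower and 26.9% higher. Of the 78 members 60 span under 10 kb, and the 548 other protein-coding genes of that span and level had a median of 0.14, with 21.4% lower and 38% higher. The members at that level (74 genes) had a median of -0.20. By these descriptions the median of the members lay below that of abundant genes and further below that of abundant short ones.

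Members with a pyrimidine run of 5 or more at the RefSeq start were lower in 14 of 42 genes, with a median of -0.19, and the 21 with a shorter run or none in 8, with a median of -0.14. Beside this, 37.2% of all members and 25.1% of all tested genes were lower. The 509 tested other genes with such a run had a median of -0.05 (160 lower and 110 higher), and the 9841 without it one of 0.00. The 28 members that hold a small nucleolar RNA gene within their span had the same median, -0.19, as the 50 that do not. Of the 73 tested ribosomal protein pseudogenes 13 were lower and 9 higher, shares below the 25.1% and 24.3% of all tested genes. Pseudogene reads came to 4.05% ± 0.144 of the member reads in controls and 3.78% ± 0.0225 after CPT-11 (SD, n = 3).

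**Figure D5:**
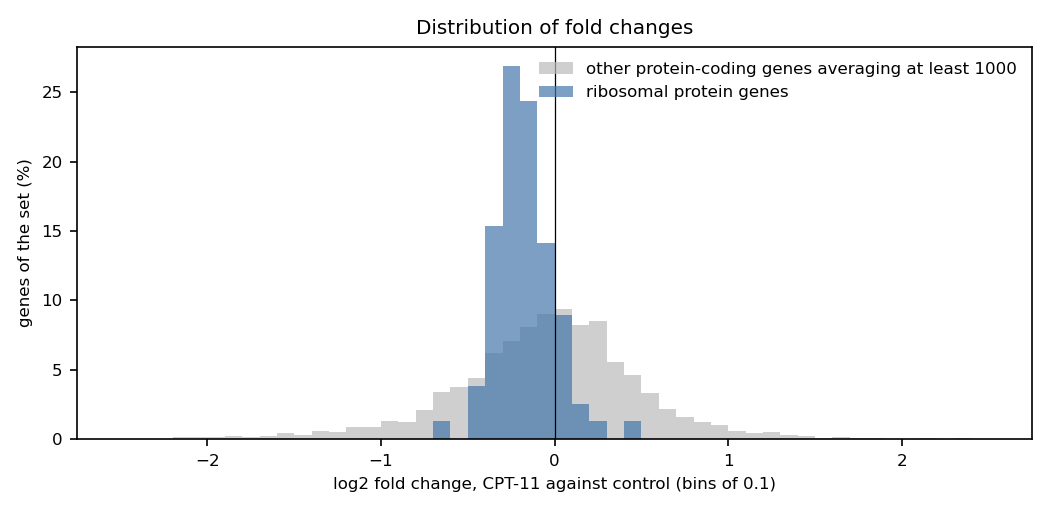
Distribution of log2 fold changes (x axis, CPT-11 against control, bins of 0.1) of the 78 ribosomal protein genes (blue) and of the 3946 other protein-coding genes averaging at least 1000 normalized counts (grey), each in percent of its set (y axis). The blue bars crowd around a median of -0.19, while the grey set has a median of -0.02 and reaches far beyond on both sides.

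Genes for proteins of the ribosome with other names and for close copies had fold changes of both signs. FAU, which encodes a ubiquitin-like protein fused to a 40S protein, had 0.19 (limma adjusted p = 0.0917), and RACK1, a scaffold on the 40S head, -0.20 (limma adjusted p = 0.062). Of the 4 copies outside the name rule 2 were higher and 0 lower, and all 4 were higher without the libraries numbered 1. RPS27L, a close relative of RPS27, had 775, 688 and 659 in controls and 1905, 2262 and 2317 after CPT-11. It was higher, with a log2 fold change of 1.61 (SE 0.10, limma adjusted p = 1.08e-09). RPL7L1 was also higher (0.39), and RPL26L1 (0.22) and RPL22L1 (-0.02) were not called. The difference between these genes and the members was not tested.

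Genes of the rest of the translation apparatus were called in both directions, beside 25.1% lower and 24.3% higher over all tested genes, and most of them were not called. Of 19 measured genes with TOP mRNAs outside the members 7 were lower and 2 higher. HNRNPA1, an RNA-binding protein of splicing, was the lowest of them (log2 fold change -1.01), NPM1, a nucleolar chaperone, had -0.42 and the elongation factor gene EEF1A1 -0.30, while EEF1D, a subunit of the factor that recharges it, was the highest (0.45). Of 30 other initiation factor genes 9 were higher and 4 lower. The extremes were EIF2B2 (0.84), a subunit of the exchange factor for eIF2, and EIF4G3 (-1.16), a scaffold of the cap-binding complex. Of 10 elongation and release factor genes 1 was higher, PELO (0.34), which rescues stalled ribosomes, and 3 lower, with EEFSEC (-0.58), the selenocysteine elongation factor, the lowest. Without the libraries numbered 1 these 3 lists had 5 lower and 6 higher, 3 lower and 13 higher, and 3 lower and 2 higher.

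Of 11 dedicated chaperones and importers of ribosomal proteins 3 were higher and 3 lower, shares near the 24.3% and 25.1% of all tested genes (5 and 3 without the libraries numbered 1). The importers IPO5 (-0.84), IPO7 (-0.46) and TNPO1 (-0.39) were the lower ones, and PDCD2L (0.61), HEATR3 (0.58) and PDCD2 (0.25), which attend small subunit proteins or RPL5, the higher. Of 12 regulators of TOP mRNAs 4 were lower and 1 higher, beside the same shares of all genes (5 and 2 without the libraries numbered 1). RPTOR, the scaffold of mTORC1, had 1158, 1505 and 1542 in controls and 705, 664 and 653 after CPT-11, groups far from each other (log2 fold change -1.04, limma adjusted p = 6.05e-07). RHEB, the GTPase that activates mTORC1, had -0.59, LARP4B -0.67 and the translation repressor gene EIF4EBP1 -0.40, while MLST8, another mTORC1 subunit, was higher (0.40). MTOR (0.06) and LARP1 (-0.18) were not called.

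The authors' deposited table lists 27 of the 79 members lower and 1 higher at an adjusted p below 0.05, beside 12.5% and 12% of all its genes. These shares are over all 30560 genes, including those averaging under 10 normalized counts. Over the 16239 tested genes the shares in the limma fit were 25.1% and 24.3%.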

How the data were processed

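The authors deposited a normalized signal per gene and sample (the normalized count here) with a log2 fold change, a p-value and an adjusted p-value, per the file headers. Per the submitters' processing notes the build was GRCh38 and the tools included featureCounts 1.6.2 and HISAT2 2.1.0, fastp 0.19.3, edgeR 3.24.3 and DESeq2 1.22.1, and StringTie 1.3.4d. For strandedness and the counting of shared reads the sources used here say nothing. All values (100%, within 0.001 read) were whole multiples of 1 read, so reads were recovered; for control 1 they were taken as such, its size factor being 1.0000114. Because the table holds normalized counts, the test was limma 3.58.1 with a trend (R 4.3.3) on log2(normalized count + 1), two-sided, for 16239 genes averaging at least 10, with Benjamini-Hochberg adjustment. A fold change is on that scale, and SE is limma's. edgeR 4.0.16 on the recovered reads, the count test, called 8079 genes, and DESeq2 1.42.0 called 7805. Depth was 15398464 to 18031195 reads, so that a floor of 3 reads was 0.166 to 0.195 CPM, counting error only. The fits were tested on simulated reads. Members and lists were chosen with earlier results of these data known. Members were named by a rule: stated genes, paralog pairs, the 6 highest and 6 lowest fold changes averaging at least 100, and the extremes of level per coding kilobase; for other lists the most changed gene each way. RPS27, RPL5's chaperone HEATR3, MDM2, NPM1, EEF1A1, IPO7, TNPO1, PDCD2, RHEB, LARP4B, EIF4EBP1, MTOR, LARP1 and the members listed as called were named after their values were seen. A few genes under this rule are not reported here. Coding lengths and shared 31-base words came from GENCODE on GRCh38, and start windows from RefSeq. Alternatives covered pseudocount, filter, scaling, tool, replicate block, membership and samples left out.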

Additional observations from a re-analysis of the deposited data

How the results depend on the processing

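The 29 lower members became 15, with 3 higher, when libraries were scaled by size without mitochondrial genes. The members' median log2 fold change was then -0.11, and the median of all tested genes moved by 0.08. The members' median minus that of all genes was -0.20 in all 5 scalings. This is no check of the result, since a scaling shifts all genes of a library alike. Deviations of same-numbered samples correlated at -0.23, -0.01 and -0.10 over all tested genes and at -0.806, -0.367 and -0.665 over the members. None was positive, but whether the samples were paired by culture cannot be read from this. With the number as a block 16 members were lower and 1 higher, and 7 were called on the members' own pool in place of 15. RPL11 was not called with the block (limma adjusted p = 0.0558). Leaving out 1 sample gave 16 to 27 lower and 1 to 2 higher, a median of -0.23 to -0.13, 7 to 20 called on the pool and a share difference of -0.64 to -0.527 percentage points. The count fell to 16 without CPT-11 sample 2 and 17 without CPT-11 sample 3. Without control 1 alone there were 24 lower and 2 higher, with a median of -0.13. Without CPT-11 sample 1 alone there were 24 lower and 1 higher, with a median of -0.15. Without both libraries numbered 1 there were 33 lower and 10 higher, a median of -0.10, and 39 on the pool. With no filter the pool count was 9. A broad reading of the name rule gave 2 higher, and the 13 members with little overlap or shared sequence gave 4 lower and 0 higher. The difference in share was -0.582 points, and -0.431 without mitochondrial reads. Of the 29 lower members 11 stayed lower in all 18 alternatives to the test (among them RPL30, RPL5, RPL9, RPS14, RPS15, RPS2, RPS25, RPS28, RPS7 and RPSA). Signs of uncalled genes turned as follows (log2). Without mitochondrial genes RPLP0 had 9e-04, RPS4X 0.0208, RPL36AL 0.0656 and RPL22L1 0.0672. By library size RPL36AL had 0.0167 and RPL22L1 0.0183, and without the members in it 0.0078 and 0.0094. Without the libraries numbered 1 RPS27A had 0.0759, RPS4X 0.0063, RPL36AL 0.0334, RPL41 0.0462 and RPL22L1 0.175, the last now called higher (limma adjusted p = 0.022). Leaving out 1 sample took RPL36AL up to 0.0546, RPL39 from -0.0815 to 0.3194 and RPL22L1 up to 0.1119. The cause was not tested.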
